A study of Mus musculus with 16 samples.

Results

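The cytosolic ribosomal protein genes were followed in whole retina of C57BL/6 mice, measured on single-colour Illumina BeadChips, on which the brightness of a probe reports the amount of its transcript. Members were the probes whose gene symbol in the deposited annotation begins with Rpl or Rps and names a protein of the small or large subunit, without the S6 kinases, binding proteins and pseudogenes. This gave 78 probes for 63 genes among 25697 probes. Of these, 68 probes for 58 genes were kept because their detection p-value fell below 0.05 on 4 or more of the 16 arrays, as were 15016 probes in all. The 68 comprised 29 small-subunit and 39 large-subunit probes. The other 10 probes were detected on no array, and 5 of them were the only probes of Rpl14, Rpl17, Rpl6, Rplp2 and Rps23.

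Every ribosome joins a small subunit, which reads the messenger RNA, to a large subunit, which forms the peptide bond. Their proteins are made in matched amounts and are among the most abundant transcripts of most cells. Many ribosomal protein messengers begin with a run of pyrimidines, the terminal oligopyrimidine tract, through which mTOR signalling and the RNA-binding protein Larp1 set their translation. In the retina, protein synthesis supplies the photoreceptors, which renew their outer segments throughout life.

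The samples were females and males at 3 months (young) and 24 months (aged), 4 arrays in each of the 4 groups, of 1 inbred strain and left without genetic or drug treatment. One array departs from this: male aged 1 is called aged in its title while its age field gives 12 months. It was kept in the aged male group, and the counts and the main members' changes that rest on that group are given with and without it. The labels do not say that arrays came from separate animals, so the spread behind every p-value is that of these samples and may in part be technical. In whole tissue, fewer cells of a type and less RNA per cell cannot be told apart.

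Mean intensity ran from 158 to 240 per array, and 52.6% to 57.0% of probes were detected. Arrays of a group correlated at 0.983 to 0.995. Rod markers, the defining genes of the main retinal cell, were tested for 10 of 11 genes, and their summed signal ran from 86460 to 102900 over all arrays. The arrays lay on 5 slides, and slides 1 to 4 each carried more than 1 group.

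Of the 68 probes 65 were detected on all 16 arrays. The exceptions were 1 of the 2 tested probes of Rpl27a, on 12 arrays, 1 of the 2 tested probes of Rps19, on 5, and Rpl3l, a paralogue of Rpl3 known from skeletal and heart muscle, on 4. This Rps19 probe was detected on 3 aged male arrays and Rpl3l on 3 as well, and neither would have passed the filter without them. Both count below among the members higher in aged males, a direction that is not independent of the filter. The median residual SD of a member probe within groups was 0.123 on the log2 scale, against 0.149 over all tested probes, which were not matched for brightness. The members' median deviation per array, given below, had an SD of 0.104 in aged males and 0.021 to 0.048 in the other groups. All levels below are log2 normalised intensities, and all changes are log2 differences. Levels of different probes are not set against each other, because each probe has its own brightness.

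Promoter sequences are shown for 8 members that the results turn on, since the pyrimidine tract at the start of transcription is the feature this gene family is known to share. Each line gives 80 bases of the coding strand in the RefSeq annotation of GRCm38.p6, from 50 before the annotated start to 30 from it. The capitals mark the longest unbroken run of C and T with a base within 10 of the start. Where runs were equally long, as in Rps7, the most upstream is marked.
Rps27l, chr9:66946036-66946115, plus strand: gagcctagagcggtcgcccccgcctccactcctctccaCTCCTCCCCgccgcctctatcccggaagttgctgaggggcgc
Rpl10, chrX:74270766-74270845, plus strand: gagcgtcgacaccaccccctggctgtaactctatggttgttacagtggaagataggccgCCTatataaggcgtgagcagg
Rps7, chr12:28635924-28636003, minus strand: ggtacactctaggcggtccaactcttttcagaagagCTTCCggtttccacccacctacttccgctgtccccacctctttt
Rps6, chr4:86857338-86857417, minus strand: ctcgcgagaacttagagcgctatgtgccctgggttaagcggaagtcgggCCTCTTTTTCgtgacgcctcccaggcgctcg
Rps19, chr7:24884542-24884621, plus strand: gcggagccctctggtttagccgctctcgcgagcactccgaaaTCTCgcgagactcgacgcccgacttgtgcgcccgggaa
Rpl7a, chr2:26910757-26910836, plus strand: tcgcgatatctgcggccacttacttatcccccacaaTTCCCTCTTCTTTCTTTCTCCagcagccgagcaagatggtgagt
Rps4x, chrX:102189362-102189441, minus strand: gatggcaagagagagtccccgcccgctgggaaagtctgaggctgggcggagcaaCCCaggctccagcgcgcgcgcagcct
Rpl38, chr11:114668530-114668609, plus strand: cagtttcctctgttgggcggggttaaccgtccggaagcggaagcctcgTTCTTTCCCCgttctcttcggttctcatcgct

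The run was 9 bases in Rps27l, 10 in Rps6, 10 in Rpl38 and 21 in Rpl7a. In Rpl10, Rps7, Rps19 and Rps4x it was 3, 5, 4 and 3 bases. Rps27l and Rps19 have 2 and 3 annotated starts, of which the most upstream is shown, while the counts that follow take a gene's longest run over its starts. The promoter table held 45 of the 58 tested member genes. A run of at least 8 bases of C and T stood there in 21 of 45 (46.7%), against 15.8% of the 27025 genes with an entry. CCGGAAG, the core letters bound by GABP, was found on either strand of the 300 bases around the start in 17 (37.8%), against 9.93% of all. AAGATGGC, the core letters bound by YY1, was found in 5 (11.1%), against 3.19%. A match is a description of the letters and not a binding site. Long and short runs both occurred among the members described next.

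Across the 16 arrays the members' median deviation was highest on male aged 2, 3 and 4 and lowest on male young 4. The median deviation of the 68 probes from their own means was -0.010, -0.036, -0.019 and 0.015 on the young female arrays and -0.068, 0.031, -0.045 and -0.026 on the aged female arrays. It was -0.001, -0.075, -0.060 and -0.116 on the young male arrays. On the aged male arrays it was -0.054 for male aged 1, and 0.163, 0.114 and 0.168 for male aged 2, 3 and 4. Male aged 1 thus lay within the range of the young males, and the other 3 aged males lay above every other array. On male aged 2, 3 and 4, 58, 55 and 58 of 68 probes stood above their own means, against 21 on male aged 1 and 13 to 34 on the young males.

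**Figure D1:**
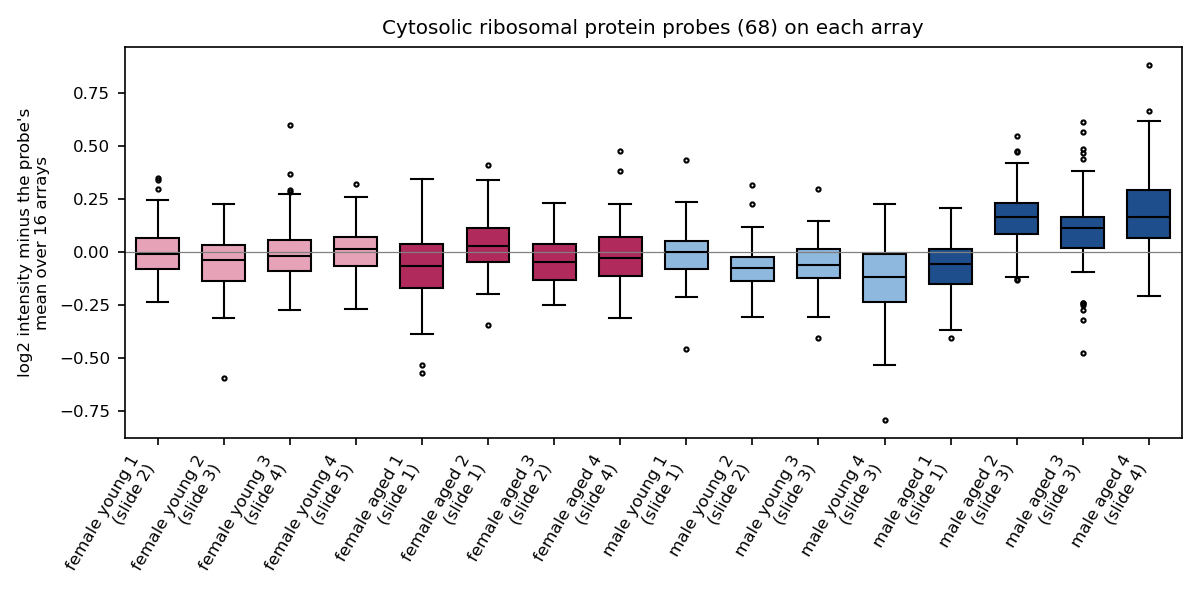
Deviation of 68 ribosomal protein probes from their own mean over the 16 arrays, in log2 units, for each array with its slide. Boxes span the quartiles with the median as a line, whiskers reach the last probe within 1.5 box lengths and dots are probes beyond. The medians of male aged 2, 3 and 4 are 0.163, 0.114 and 0.168, and male aged 1 lies at -0.054.

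Small-subunit and large-subunit medians were both highest on male aged 2, 3 and 4. The small-subunit median was lowest on female aged 3 (-0.123) and the large-subunit median on male young 4 (-0.134). On male aged 2, 3 and 4 the small-subunit median was 0.179, 0.139 and 0.169, and the large-subunit median 0.152, 0.104 and 0.167. The median of all tested probes on these arrays was -0.021, -0.006 and -0.024. The mean of the array medians was 0.098 ± 0.104 (SD, n = 4) in aged males and -0.063 ± 0.048 (SD, n = 4) in young males. In females it was -0.027 ± 0.042 (SD, n = 4) aged and -0.012 ± 0.021 (SD, n = 4) young.

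**Figure D2:**
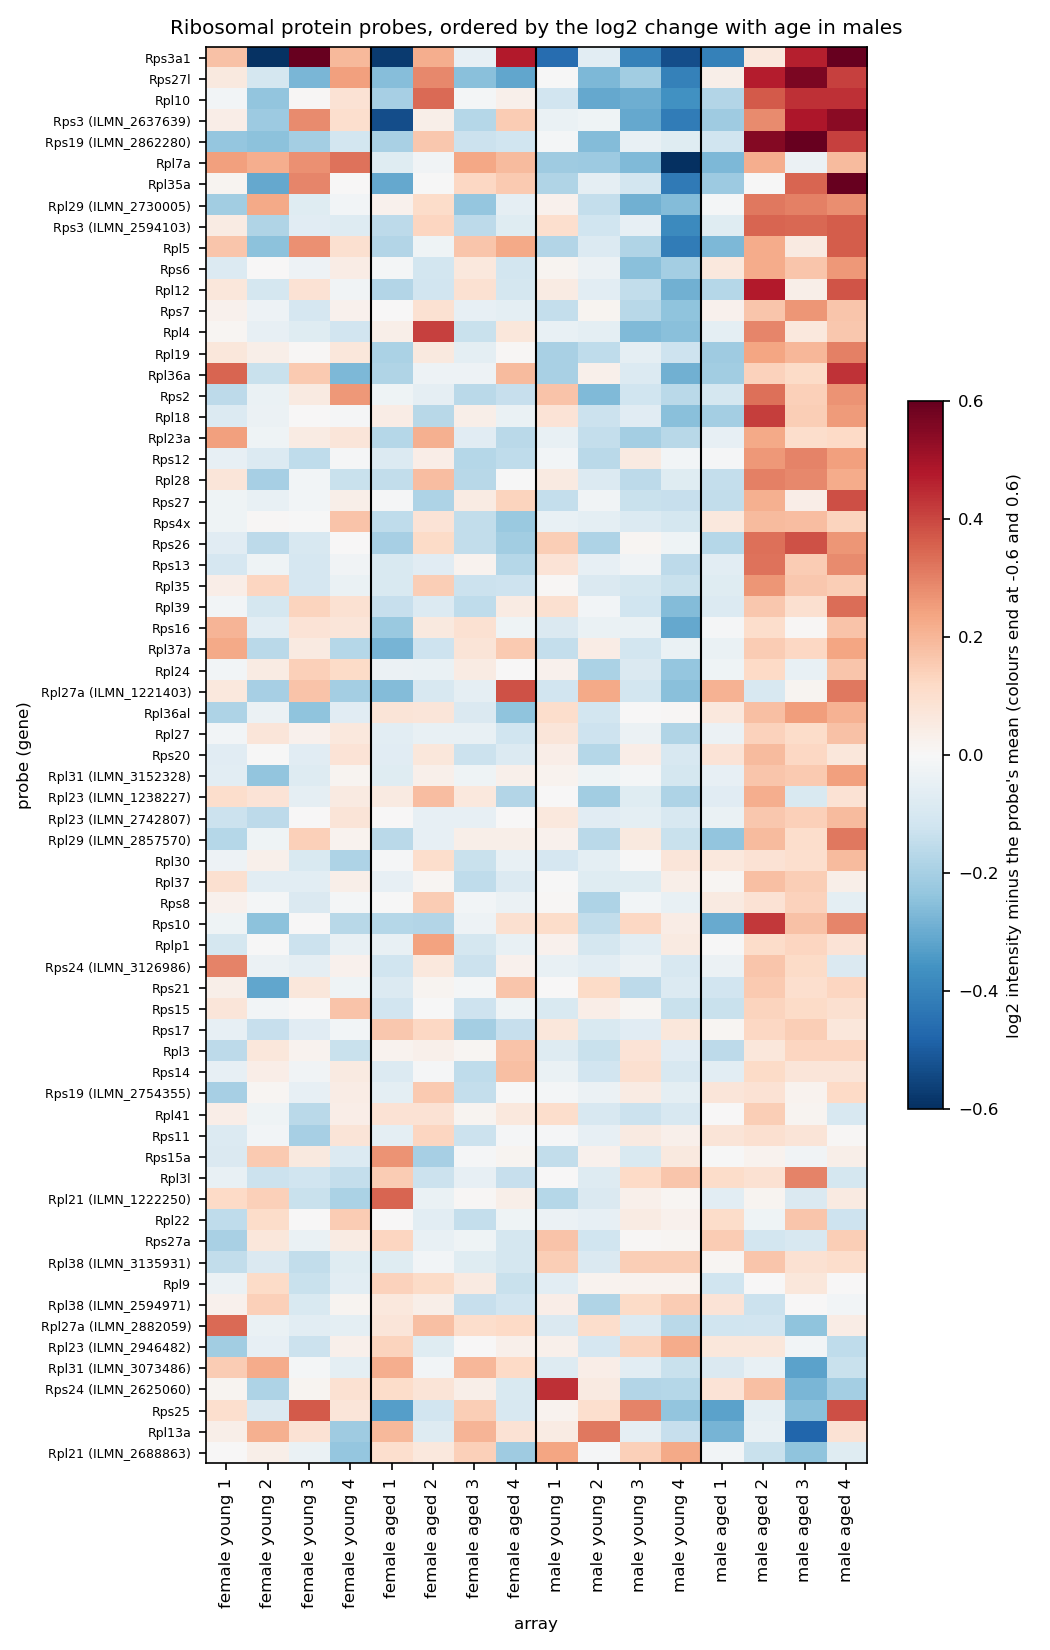
Each row is 1 of 67 probes, ordered by its log2 change with age in males, and each column an array, with lines between groups. Colour is the log2 deviation from the probe's mean, red above and blue below. The 3 columns of male aged 2 to 4 are red over most rows, 57, 54 and 57 of 67, while male aged 1 has 21 rows above the mean.

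In males the members' median change with age lay above 0. Of 68 probes 59 were higher in aged than in young males, against 44.1% of all tested probes, with a median change of 0.162 and quartiles of 0.084 and 0.247, against a median of -0.022 over all tested probes. With all 16 arrays none passed an adjusted p of 0.05 (limma with Benjamini-Hochberg adjustment over all tested probes), where 0.992% of all probes did. At an unadjusted p under 0.05, 27 members were higher and 1 was lower, against 6.58% and 7.98% of all tested probes. The small-subunit probes had a median of 0.163 with 27 of 29 above 0, and the large-subunit probes 0.161 with 32 of 39.

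Without male aged 1, 7 members rose (adjusted p under 0.05), where 1.09% of all probes rose. They were Rpl10, Rpl19, Rpl29, Rps19, Rps27l, Rps3 and Rps7, 4 small-subunit and 3 large-subunit proteins. The median change was then 0.209, and 37 members were higher at an unadjusted p under 0.05, against 7.01% of all. The aged and young arrays did not overlap, with the aged above, for 37 of 68 members without male aged 1 (6.48% of all probes) and for 6 of 68 with it (3.88%). Other arrays also moved the count of 27: it was 13 without male young 4, 14 without male aged 2 and 14 without male aged 4. Over all 15016 probes these counts were 773, 1013 and 816.

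Rps27l, a paralogue of Rps27 known in human cells as a p53 target, measured 9.82, 9.56, 9.62 and 9.42 in the young males and 9.86, 10.30, 10.39 and 10.24 in the aged males. Male aged 1 lay just above the highest young array and the other 3 well above it. The change was 0.59 (SE 0.15, unadjusted p = 0.000883, adjusted p = 0.0671), and 0.70 (SE 0.15, adjusted p = 0.0245) without male aged 1. In females the levels were 9.89, 9.72, 9.55 and 10.07 young and 9.57, 10.12, 9.58 and 9.51 aged, a change of -0.11 with overlapping groups.

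Rpl10, a large-subunit protein that joins late in assembly and is encoded on the X chromosome, measured 11.76, 11.57, 11.58 and 11.51 in young and 11.69, 12.24, 12.31 and 12.31 in aged males. Male aged 1 lay inside the young range and the other 3 lay close together above it. The change was 0.54 (SE 0.13, adjusted p = 0.0685) with all arrays. Without male aged 1 it was 0.68 (SE 0.11, adjusted p = 0.00547).

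Rps19, the small-subunit protein most often mutated in human Diamond-Blackfan anaemia, followed the same arrays. Its brighter probe measured 11.85, 11.60, 11.81 and 11.79 in young and 11.74, 12.41, 12.47 and 12.27 in aged males. The change was 0.46 (SE 0.13, adjusted p = 0.104), and 0.62 (SE 0.095, adjusted p = 0.00299) without male aged 1. Young males and male aged 1 overlapped, and male aged 2 to 4 stood apart. The second Rps19 probe, detected on 5 arrays, changed by 0.09 in the fit, with levels of 4.55, 4.53, 4.61 and 4.50 and 4.64, 4.65, 4.58 and 4.68.

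Rps7, a small-subunit protein that can bind Mdm2, measured 12.05, 12.21, 12.03 and 11.95 in young and 12.22, 12.36, 12.46 and 12.36 in aged males. Here all 4 aged arrays lay above all 4 young ones, although male aged 1 and male young 2 nearly met. The change was 0.29 (SE 0.075, adjusted p = 0.0830), and 0.33 (SE 0.079, adjusted p = 0.0463) without male aged 1. Rps6, the substrate of S6 kinase that gives the enzyme its name, measured 11.17, 11.12, 10.90 and 10.95 and 11.22, 11.38, 11.32 and 11.41. Its aged arrays lay above its young ones too, with a change of 0.30 (SE 0.077, adjusted p = 0.0839), and 0.33 (adjusted p = 0.0536) without male aged 1.

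The remaining members called without male aged 1 had the same order of arrays. Rpl19, a large-subunit protein, measured 9.27, 9.31, 9.41 and 9.34 in young and 9.25, 9.70, 9.66 and 9.76 in aged males, a change of 0.38 (SE 0.075, adjusted p = 0.0200) without male aged 1 and 0.26 with it. The first Rpl29 probe measured 8.46, 8.29, 8.15 and 8.17 and 8.42, 8.75, 8.74 and 8.71, a change of 0.47 (adjusted p = 0.0452) against 0.39 with all arrays. Male aged 1 was the lowest aged array of both. Rps3, which lies where messenger RNA enters the small subunit, measured 11.35, 11.12, 11.19 and 10.86 and 11.17, 11.59, 11.59 and 11.61 on its brighter probe, a change of 0.46 (adjusted p = 0.0391) against 0.36 with all arrays.

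**Figure D3:**
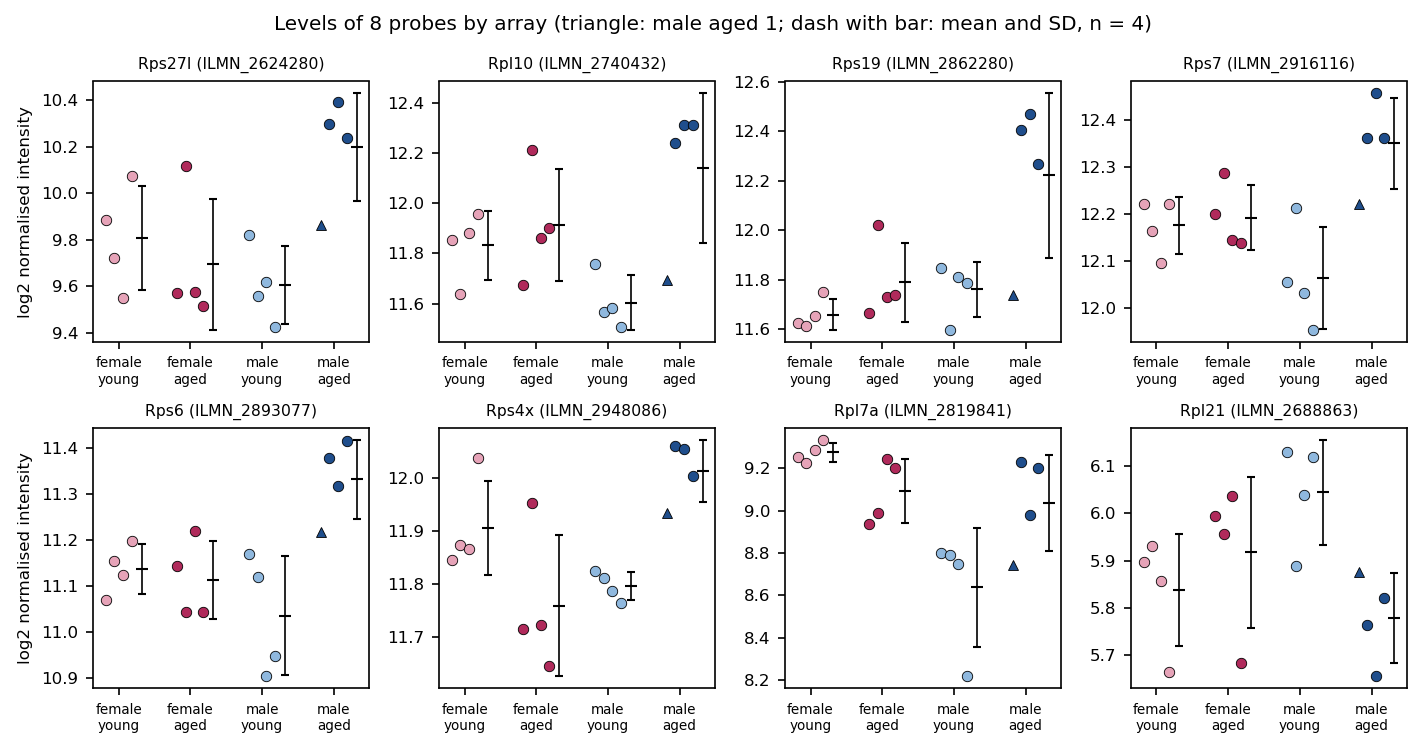
Log2 normalised intensity of 8 probes on each array, in young and aged females and males, with the mean and SD of the 4 arrays beside the points. Male aged 1 is drawn as a triangle. For Rpl10 it lies at 11.69, below male aged 2 to 4 at 12.24 to 12.31, and for Rpl7a the young males lie below all young females.

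Not every member was higher in aged males. The only one lower at an unadjusted p under 0.05 was a probe of Rpl21, a large-subunit protein, with 6.13, 5.89, 6.04 and 6.12 in young and 5.88, 5.76, 5.66 and 5.82 in aged males. Its change was -0.27 (SE 0.092, unadjusted p = 0.0101, adjusted p = 0.194), and -0.30 (adjusted p = 0.153) without male aged 1. The second Rpl21 probe changed by 0.03. The 8 other probes below 0 had unadjusted p-values of 0.103 and above and included Rpl13a (-0.22), Rps25 (-0.11) and Rpl9 (-0.01).

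Where a gene had more than 1 tested probe, as 9 genes did, the probes did not always give the same change in males. The probes of Rps19 lay 0.37 apart, those of Rpl21 0.30, of Rpl31 0.25, of Rpl29 0.24, of Rpl23 0.23 and of Rpl27a 0.23. Those of Rps3 and Rpl38 lay within 0.11 and 0.05. Members with a large residual SD were Rps3a1 (0.45), 1 Rps3 probe, Rpl35a and Rps25. Rps3a1 measured 8.21, 8.61, 8.27 and 8.14 in young and 8.27, 8.73, 9.14 and 9.56 in aged males but ran from 8.08 to 9.28 in young females, so its change of 0.62 had an SE of 0.27 and an adjusted p of 0.309. It was 0.84 (adjusted p = 0.134) without male aged 1.

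In females the members' median change with age lay close to 0. No member passed an adjusted p of 0.05, where 0.633% of all probes did, and none had an unadjusted p under 0.05, where 7.14% did. The changes ran from -0.21 to 0.15 around a median of -0.005, with 33 of 68 above 0 (49.7% of all probes), and the median over all probes was -0.001. The smallest p was that of Rps4x, the X-linked S4 protein, with 11.85, 11.87, 11.87 and 12.04 in young and 11.72, 11.95, 11.72 and 11.64 in aged females. Female aged 2 lay among the young arrays and the other 3 aged arrays below them, and the change was -0.15 (SE 0.075, unadjusted p = 0.0676, adjusted p = 0.753). Rps15, Rpl27, Rpl4 and Rpl23a followed with changes of -0.12, -0.10, 0.15 and -0.13, all with an adjusted p between 0.831 and 0.867.

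**Figure D4:**
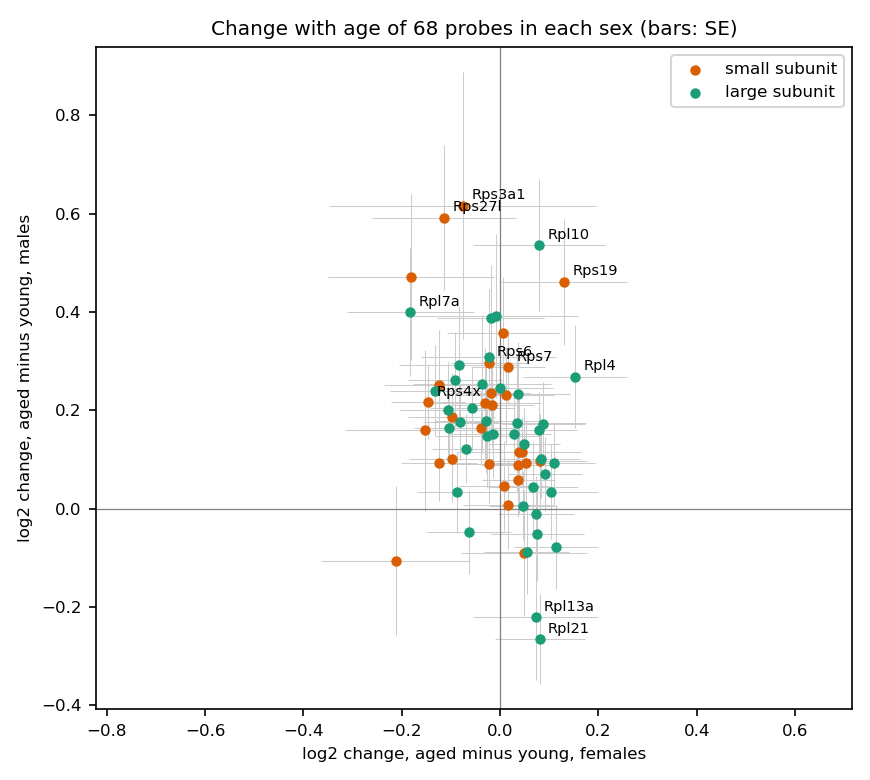
Log2 change with age in females (horizontal axis) and in males (vertical axis) of 68 probes, with the SE of each as bars and the subunit as colour. The points are spread evenly about 0 in females, 33 of 68 above it, and lie mostly above 0 in males, 59 of 68, with Rps3a1, Rps27l, Rpl10 and Rps19 among the highest.

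The difference between the sexes in the change with age, the interaction, was above 0 for 55 of 68 members (45.7% of all probes), with a median of 0.194 against -0.021 over all probes. No member passed an adjusted p of 0.05, and neither did any of the 15016 probes (0%). At an unadjusted p under 0.05, 19 members were higher and 1 lower, against 4.02% and 5.31% of all probes, and 32 were higher without male aged 1 against 5.17%. The count of 19 was 10 without male aged 2, 10 without male aged 4, 11 without male young 4 and 12 without female aged 1. Over all 15016 probes these counts were 662, 450, 447 and 432. The smallest p was that of Rps4x, which measured 11.82, 11.81, 11.79 and 11.77 in young and 11.93, 12.06, 12.05 and 12.00 in aged males, so that its aged males lay above its young males while its aged females lay mostly below its young females. The interaction was 0.36 (SE 0.11, unadjusted p = 0.00331, adjusted p = 0.458). It was 0.71 (SE 0.21, adjusted p = 0.458) for Rps27l, and 0.58, 0.32 and 0.37 for Rpl7a, Rps6 and Rpl23a (adjusted p = 0.499 each). Leaving out male aged 1 gave 0.39 for Rps4x, 0.82 for Rps27l, 0.68 for Rpl7a, 0.36 for Rps6 and 0.42 for Rpl23a, with adjusted p-values between 0.222 and 0.295.

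Averaged over the sexes, no member passed an adjusted p of 0.05 for aging, where 1.88% of all probes were called. The median change was 0.075, and 10 members were higher and 0 lower at an unadjusted p under 0.05, against 5.59% and 5.47% of all probes. Rps19 (0.30, adjusted p = 0.137) and Rpl10 (0.31, adjusted p = 0.141) led. In females alone Rpl10 changed by 0.08 (adjusted p = 0.959), and the Rps19 probe had means of 11.66 young and 11.79 aged. The female arrays of both probes overlapped. Without male aged 1, Rps19 and Rpl10 rose in the average over the sexes, by 0.38 (adjusted p = 0.00384) and 0.38 (adjusted p = 0.0132), where 1.42% of all probes rose. The count of 10 was then 24, against 5.76% of all probes. It was 5 or 6 without female young 3, female aged 2, male young 2, 3 or 4 or male aged 2, 3 or 4. Over all 15016 probes the count was 723 to 829 in those runs.

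Between young males and young females 1 member was called, Rpl7a, where 0.393% of all probes were called. Rpl7a, a large-subunit protein whose introns hold small nucleolar RNAs in mouse and human, measured 9.26, 9.23, 9.29 and 9.34 in young females and 8.80, 8.79, 8.75 and 8.22 in young males. All young males lay below all young females, and male young 4 lay far below the other males. The difference, male minus female, was -0.64 (SE 0.13, adjusted p = 0.0402), and it was -0.50 (adjusted p = 0.122) without male young 4. The call was also lost without female young 1, 2, 3 or 4, male young 1 or 3 or male aged 3, where the difference lay between -0.62 and -0.69 and the adjusted p between 0.0509 and 0.105. With slide as a block it was -0.54 (adjusted p = 0.192). In the aged groups Rpl7a measured 8.94, 8.99, 9.24 and 9.20 in females and 8.74, 9.23, 8.98 and 9.20 in males, which overlapped, with a difference of -0.06.

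Over all 68 members 2 were higher and 4, Rpl7a included, were lower in young males at an unadjusted p under 0.05, against 7.98% and 7.67% of all probes. The median difference was -0.045, against 0.016 over all probes. Rpl38 is a large-subunit protein known for its part in the translation of Hox messengers in the mouse embryo. Its brighter probe was 0.20 higher (adjusted p = 0.178), and its second probe had means of 7.61 in young females and 7.62 in young males. Rpl24, which bridges the subunits, differed by -0.20 (adjusted p = 0.231), and Rpl23a, at the exit of the peptide tunnel, differed by -0.22 (adjusted p = 0.260). A Rpl21 probe was 0.21 higher (adjusted p = 0.290), and the second had means of 5.66 in young females and 5.62 in young males.

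Between aged males and aged females 56 of 68 members were higher in males (48.2% of all probes), with a median of 0.132 against -0.006 over all probes. None passed an adjusted p of 0.05, where 0.686% of all probes did, while 19 were higher and 3 lower at an unadjusted p under 0.05, against 5.67% and 7.05%. Without male aged 1, Rps12, Rps19, Rps26 and Rps27l were higher in males (adjusted p = 0.0340, 0.00553, 0.0346 and 0.0490), where 0.519% of all probes were, and 32 were higher at an unadjusted p under 0.05, against 6.21%. Rps12, a small-subunit protein, measured 12.49, 12.61, 12.40 and 12.42 in aged females and 12.56, 12.83, 12.87 and 12.82 in aged males, and male aged 1 lay among the females. The difference was 0.29 (SE 0.081, adjusted p = 0.125) with all arrays and 0.36 without male aged 1. Rps26, at the exit channel of messenger RNA, measured 10.86, 11.17, 10.91 and 10.85 and 10.89, 11.39, 11.44 and 11.32. The difference was 0.31 (adjusted p = 0.237) with all arrays and 0.44 without male aged 1. Among the smallest p-values with all arrays, Rps4x differed by 0.25 (adjusted p = 0.147). A Rpl31 probe was lower in males, with a difference of -0.28 (adjusted p = 0.164), and -0.30 (adjusted p = 0.142) without male aged 1. The second Rpl31 probe had means of 11.94 in aged females and 12.08 in aged males. The aged comparison shares the aged males with the aging comparison, so the 2 comparisons are not separate evidence. The count of 19 was 8, 10 and 12 without male aged 3, 2 and 4, and 11 and 10 without female aged 3 and 4. Over all 15016 probes these counts were 605, 697 and 839, and 715 and 653.

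**Figure D5:**
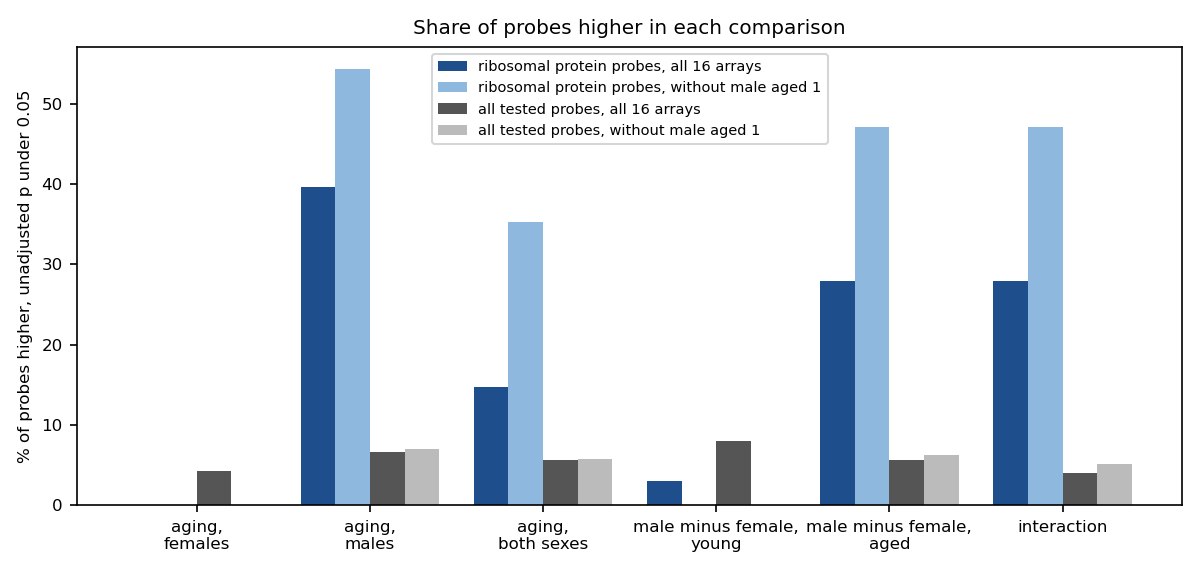
Percent of probes higher at an unadjusted p under 0.05 in each comparison, for the 68 ribosomal protein probes (blue) and all 15016 tested probes (grey), with all 16 arrays (dark) and without male aged 1 (light, drawn for the comparisons that use it). In aging of males 27 of 68 members stand against 6.58% of all probes, and in aging of females 0.

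Smaller groups of members are given by their counts. The 4 X-linked members, Rpl10, Rpl36a, Rpl39 and Rps4x, had changes of 0.54, 0.25, 0.20 and 0.22 in males, and 2 of 4 had an unadjusted p under 0.05, where 6.58% of all probes were higher. The count was 4 of 4 without male aged 1, against 7.01% of all probes, and 1, Rpl10, was called. Between young males and young females all 4 differences lay below 0, with a median of -0.13, and 0 of 4 had an unadjusted p under 0.05. Of the paralogues, Rps27l changed by 0.59 (adjusted p = 0.0671) and Rps27 by 0.23 (adjusted p = 0.296) in males, Rpl36a by 0.25 (adjusted p = 0.422) and its autosomal copy Rpl36al by 0.17 (adjusted p = 0.359). When male aged 1 was left out, Rps27 changed by 0.32 (adjusted p = 0.0934), Rpl36a by 0.36 (adjusted p = 0.212) and Rpl36al by 0.21 (adjusted p = 0.276). Rpl22 (0.03), Rpl3 (0.09) and Rpl3l (0.04) had adjusted p-values of 0.644 and above with all arrays. No difference between paralogues was tested. The stalk of the large subunit, where the elongation factors bind, was represented by Rplp1, with a change of 0.10 (adjusted p = 0.583). Of the listed proteins that bind Mdm2 when ribosome assembly fails, Rpl5 changed by 0.31 (adjusted p = 0.312) and the 3 tested probes of Rpl23 between -0.08 and 0.15. Without male aged 1 it was 0.43 (adjusted p = 0.119) for Rpl5 and between -0.10 and 0.20 for Rpl23. Rps7, which can bind Mdm2 too, was not in this list and is described above. Of 15 probes of genes mutated in human Diamond-Blackfan anaemia, 7 were higher at an unadjusted p under 0.05, against 6.58% of all probes, with a median of 0.164, close to that of all members. With male aged 1 left out it was 10 of 15, with a median of 0.265, and 2, Rps19 and Rps7, were called.

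Other genes of protein synthesis had medians nearer to 0 than the members in male aging. Over all tested probes, 6.58% were higher and 7.98% lower there at an unadjusted p under 0.05, and 0.992% were called. Without male aged 1 these shares were 7.01%, 8.46% and 1.53%. Cytosolic translation factors, 66 probes, had a median change of 0.054 in males, with 9 higher and 0 lower at an unadjusted p under 0.05 and 0 called. Without male aged 1 the median was 0.078, with 11 higher and 1 lower, and 2 probes were called, both of Eef1b2, a subunit of the exchange factor of elongation factor 1, named after its values were seen. They rose by 0.57 (adjusted p = 0.0117) and 0.61 (adjusted p = 0.0217) without male aged 1 and changed by 0.44 (adjusted p = 0.10) and 0.49 (adjusted p = 0.0887) with it. Probes of ribosome assembly factors numbered 78, with a median of -0.047, 4 higher and 7 lower, and 1 called: Heatr1, which supports transcription by RNA polymerase I, fell by 0.43 (adjusted p = 0.0111) in males on 1 of its probes. Without male aged 1 the median was -0.040, with 5 higher and 6 lower, Heatr1 fell by 0.42 (adjusted p = 0.0239) and Taf1d, a subunit of an initiation factor of RNA polymerase I, rose by 0.63 (adjusted p = 0.0391), against 0.49 (adjusted p = 0.153) with all arrays. The 31 probes of regulators of the pyrimidine-tract messengers had a median of -0.023, with 2 higher and 6 lower, and 2 and 7 without male aged 1. The 97 probes of mitochondrial ribosomal proteins had a median of -0.017, with 6 higher and 8 lower, and 5 and 6 without male aged 1. No probe of these last 2 lists was called in male aging. Eef2 and Eif2s3x, factors of elongation and initiation, were lower in young males than in young females, where 0.393% of all probes were called. The differences were -0.76 (adjusted p = 0.0268) and -0.96 (adjusted p = 0.000254). Between aged males and aged females Eif2s3x differed by -0.59 (adjusted p = 0.0183), where 0.686% of all probes were called. It was -0.60 (adjusted p = 0.0222) without male aged 1, where 1.39% were called. Eif2s3x lies on the X chromosome and is known to escape X inactivation in the mouse.

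Slides, and markers of neighbouring tissue, moved in part with the aged males. Among the aged males only male aged 1 lay on slide 1, so its age field and its slide cannot be told apart. Slide 1 held male young 1 and male aged 1, between which the member median differed by -0.043, with 22 of 68 above 0. Slide 3 held 2 young and 2 aged males, and there it differed by 0.210, with 58 of 68 above 0 against 44.7% of all probes. With slide as a block the median change in males was 0.148, and 26 members were higher at an unadjusted p under 0.05. Between aged females and aged males it was -0.047 on slide 1, which held male aged 1, and 0.213 on slide 4. Female aging gave -0.023 on slide 2 and -0.007 on slide 4.

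Pigment epithelium markers, with 8 of 10 genes measured and all 8 tested, deviated by 1.22 on male aged 1 and by 1.76, 1.20 and 1.02 on male aged 2, 3 and 4. Their summed signal was 8204 to 12930 in aged males and 1961 to 4314 in young males. In females it was 1592 to 4056 aged and 734.5 to 7726 young. The highest young female value was that of female young 4, where the member median was 0.015. The member median was -0.054 on male aged 1 and 0.163, 0.114 and 0.168 on male aged 2, 3 and 4. Lens markers, all 10 genes tested, deviated by -0.27 on male aged 1 and by 0.45, 0.32 and 0.52 on male aged 2, 3 and 4. They deviated by 0.58 on male young 1 and 0.60 on female aged 2, and the member medians there were -0.001 and 0.031. Their summed signal was 56390 to 85950 in aged males, 51920 to 91820 in young males, 26100 to 78890 in aged females and 64850 to 83250 in young females. Microglia markers, 10 of 10 genes tested, were higher with age in both sexes, at 459 to 606 against 257 to 297 in males and 378 to 633 against 244 to 343 in females. Blood markers, 3 of 4 genes measured, deviated by -0.87, 1.21, -1.43 and 1.35 on male aged 1 to 4. Rod markers deviated by 0.016, -0.170, -0.080 and -0.041 on male aged 1 to 4. Their summed signal was 86460 to 93310 in aged and 88440 to 98910 in young males, and 3 of 11 probes had a change above 0, with a median of -0.078. Cone markers, all 7 genes tested, deviated by -0.070, -0.162, -0.164 and -0.108. Their summed signal was 11050 to 13400 in aged and 11750 to 14620 in young males, and 1 of 10 probes had a change above 0, with a median of -0.148. Male aged 1 was the highest aged male array of both sets by this deviation. In females the sums were 89380 to 102900 aged and 89220 to 99780 young for rods, and 12920 to 15310 and 13910 to 15190 for cones. The part of these markers in the result was not tested.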

How the data were processed

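Whole-retina RNA of 16 samples was measured, with groups read from titles, sex and age labels and slides from array names. The authors deposited probe intensity values and their detection p-values from the array software, per the file headers. Of the intensities, 20.7% to 24.2% per array lay below 0, so a background had been subtracted. A second deposited table of intensities, the first multiplied by 1 factor per array (0.821 to 1.25), served as an alternative. Neither the software version nor the annotation's build is given in these sources.

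The neqc function (limma 3.58.1, R 4.3.3) corrected the background, with control intensities inferred through the detection p-values and an offset of 16, and quantile-normalised the log2 values. The offset understates changes of dim probes. Symbols were updated through RefSeq, which matched 24584 of 25697 probes. One limma model with 4 group means gave 6 comparisons, two-sided, adjusted by Benjamini-Hochberg over 15016 probes. Called means an adjusted p under 0.05. Named genes were set by a rule. Per comparison it took called members, and the 5 smallest p where fewer than 5 were called. It also took members of the stalk, paralogue, X-linked and Mdm2-binding lists, and the 5 largest residual SDs. The 5 genes whose probes lay farthest apart were added, and of other lists the 3 smallest p and every called probe. Not all of these are given in the text for every comparison. Members called only without male aged 1, and a few others such as Rpl13a and Rpl9, were named after their values were seen. One gene that the rule takes enters the counts and medians and is not reported here by itself. The members, lists and tests were chosen with earlier results of these data known. Probe sequences were not used here, so shared signal from near-identical copies was not checked. In simulated male aging over 15016 probes, 78% of changes of 0.5 and 98% of changes of 1 in log2 were recovered. There were 10 false calls among the probes given no change. The simulated noise was independent between probes, with no shift shared on an array, and no added change was below 0.5. It therefore does not give the recovery of smaller or shared changes. The number of arrays, 4 per group, limits precision. Alternatives were other background, scaling, filter, variance, weight, slide and replicate-block settings, 1 probe per gene, only the compared groups and each array left out. Replicate numbers did not pair the samples: over 24 same-numbered pairs the deviations correlated at -0.341 to 0.381, and 4 exceeded 0.1.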

Additional observations from a re-analysis of the deposited data

Results flagged for a closer look

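Among 160 groups of 4 arrays tested, those of 39 named probes and of the members' median per array, 11 held 1 array far from the other 3 by Dixon's criterion, where chance gives about 1 in 20. In 4 of them the array was male aged 1, below the other aged males: Rpl10 at 11.69 (others 12.24 to 12.31), Rps12 at 12.56 (12.82 to 12.87), Rps15 at 10.43 (10.66 to 10.70) and Rpl29 at 8.42 (8.71 to 8.75). Among young males, male young 4 was low for Rpl7a at 8.22 (8.75 to 8.80), and male young 2 was low for Rpl38 at 12.72 (others 12.95) and high for Rps27 at 11.98 (11.86 to 11.87). Among aged females, female aged 2 was high for Rps27l at 10.12 (9.51 to 9.58) and female aged 4 for Rpl3 at 12.44 (12.28 to 12.30). Among young females, female young 4 was high for Rps4x at 12.04 (11.84 to 11.87) and female young 1 for a probe of Rpl27a at 9.13 (8.73 to 8.75).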

How the results depend on the processing

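The median change of the members in males stayed between 0.148 and 0.214 under 14 alternatives that kept all arrays, and between 0.137 and 0.209 with each array left out; within slide 1 it was -0.043. That of females ran from -0.018 to 0.031 and from -0.017 to 0.014. Called members in male aging numbered 0 (149 of all probes), but 2 (160) with an intensity trend and robust variances, 5 (412) with array weights, 1 (210) with slide as a random block, and 0 to 7 with an array left out. In aged males against aged females there were 0 (103), but 2 (233) with array weights and 0 to 4 with an array left out; averaged over the sexes 0 to 2. The Rpl7a call in young animals (1 called) became 0 with median scaling, no filter, slide as a fixed block, only the groups compared, and in 8 runs with an array left out (0 to 1).

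Members higher at an unadjusted p under 0.05, counted after the data were seen, numbered 13 to 37 in male aging with an array left out, 8 to 32 in the aged sex comparison, 10 to 32 in the interaction, and 5 to 24 averaged over the sexes. Over all 15016 probes, 773 and 1053 were higher at the ends of the first of these ranges and 605 and 933 at those of the second. Median scaling gave 7 in the aged sex comparison (624 of all probes) and 8 in the interaction (407). Slide as a fixed block gave 12 (869) and 8 (724). Medians with an array left out were 0.103 to 0.184 in the aged sex comparison (-0.047 within slide 1 and 0.213 within slide 4), -0.067 to -0.040 in the young one, 0.060 to 0.093 averaged over the sexes and 0.155 to 0.225 in the interaction. With the replicate number as a block the called count in young animals was 0 (36 of all probes) and the aged sex count 11 (775). This block changed no other call. The cause of these differences was not tested.

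Of the named genes, 3 small changes averaged over the sexes turned sign: Rpl22 to 0.018 with median scaling, a Rpl23 probe to -0.020 with cyclic loess and a Rpl31 probe to 0.0036 with array weights. With an array left out, these and a Rpl27a probe ran from -0.011 to 0.043 (Rpl23), -0.040 to 0.012 (Rpl31) and -0.013 to 0.061 (Rpl27a). Dim probes such as Rpl3l, detected on 4 arrays, limit what can be seen.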

Other observations

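Ribosomal proteins that the deposited annotation files under other names were found after the data were seen. Among them Rps4l (0.24, unadjusted p = 0.0130) and 1 of 4 probes of Rps9 (0.46, unadjusted p = 0.0139) were higher in aged males, with adjusted p-values of 0.211 and 0.216. Rplp0, the base of the stalk, changed by 0.05, Rpl34 by 0.10 and Rpsa, detected on 5 arrays, by -0.06, with adjusted p-values of 0.689 to 0.837. Rpl22l1, the paralogue of Rpl22, changed by 0.30 (SE 0.19, adjusted p = 0.501). Fau and Rack1, ribosomal proteins with symbols of their own, changed by -0.04 and 0.03. With the tested probes filed under other names added, the median change in males was 0.153.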
